A study of Mus musculus with 9 samples.

Results

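The acute phase serum amyloid gene Saa3, the haptoglobin gene Hp, the lysozyme gene Lyz2, the lactoperoxidase gene Lpo and the lipopolysaccharide co-receptor gene Cd14 are described here across 9 RNA libraries of cultured mouse tracheal gland cells. They are 5 of the 13336 genes of the deposited table. They were picked by symbol because earlier work on these same data had them higher in Lef1KI than in WT, so their difference between the groups is described and is not tested.

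Each of the 5 Lef1KI and 4 WT libraries came from a pool of 3 to 5 mice. Lef1KI mice carried ACTA2-CreERT2 and Lef-1KI+/+, a knock-in allele of the Wnt effector Lef-1, and WT mice carried ACTA2-CreERT2 and ROSA-TG, so both groups had the tamoxifen-inducible Cre driven by the smooth muscle actin gene. No source used here gives the age of the mice. All mice received tamoxifen on each of 5 days, and all cells were grown to passage 1 in an airway medium with Y-27632 at 10 µM and with DMH-1, A83-01 and CHIR 99021, which blocks GSK3 and so turns on Wnt signalling, at 1 µM each. The labels describe the sorted cells as myoepithelial by lineage tag, and they were collected as GFP-negative cells from Lef1KI cultures and as GFP-positive cells from WT cultures, so gate and genotype cannot be told apart. Libraries are lettered A to E in Lef1KI and A, B, D and E in WT. The letters name a library, and no source used here says whether a shared letter pairs libraries.

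Acute phase proteins are secreted in quantity during inflammation, mainly by the liver and also by epithelial and stromal cells of other tissues. Their genes are driven by IL-6, IL-1 and TNF through STAT3, C/EBP and NF-kB transcription factors. Lysozyme, which cleaves bacterial cell walls, and lactoperoxidase, which turns thiocyanate and hydrogen peroxide into an antimicrobial oxidant, are classical products of airway gland serous cells, and Lyz2 is also a standard marker of macrophages and neutrophils. CD14 passes lipopolysaccharide to the receptor pair TLR4 and MD-2.

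The 250 bases before the annotated start are shown for Saa3, Lyz2 and Lpo, because acute phase and myeloid genes are known for C/EBP and ETS sites close to their starts (RefSeq, GRCm38.p6, minus strand, 5′ to 3′). The windows are chr7:46715677-46715926, chr10:117282273-117282522 and chr11:87826115-87826364. Capitals mark matches to the C/EBP motif TTNNGNAA and, in Lyz2, to the ETS motif AGGAAGT, both searched on either strand.
Saa3: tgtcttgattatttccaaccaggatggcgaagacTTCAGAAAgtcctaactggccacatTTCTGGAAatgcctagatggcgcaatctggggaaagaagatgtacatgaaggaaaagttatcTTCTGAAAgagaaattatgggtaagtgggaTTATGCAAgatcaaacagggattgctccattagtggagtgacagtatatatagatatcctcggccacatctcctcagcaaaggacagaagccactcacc
Lyz2: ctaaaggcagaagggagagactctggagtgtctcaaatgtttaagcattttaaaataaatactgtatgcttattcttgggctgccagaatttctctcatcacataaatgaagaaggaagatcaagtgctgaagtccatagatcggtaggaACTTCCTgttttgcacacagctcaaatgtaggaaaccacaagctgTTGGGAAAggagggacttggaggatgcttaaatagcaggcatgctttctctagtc
Lpo: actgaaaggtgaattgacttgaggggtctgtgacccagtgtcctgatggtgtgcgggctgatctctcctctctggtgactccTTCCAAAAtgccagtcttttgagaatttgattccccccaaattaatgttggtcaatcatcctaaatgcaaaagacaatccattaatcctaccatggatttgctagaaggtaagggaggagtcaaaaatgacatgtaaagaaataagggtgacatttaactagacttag

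The Saa3 window held 4 C/EBP matches, whose first bases lay at -216, -191, -129 and -99 from the start. At least 1 such match occurred in 36.8% of the 32851 promoter windows of the same length, and at least 4 occurred in 0.591%. The Lyz2 window held 1 C/EBP match at -55 and 1 ETS match at -100, a motif found in 7.69% of windows, and the Lpo window held 1 C/EBP match at -168. The marked matches did not overlap each other. The STAT motif TTCNNNGAA (7.02% of windows), the TCF/LEF motif, searched as CTTTGAA and as CTTTGAT and also as CTTTGTA and as CTTTGTT (14.8%), and the NF-kB motif (7.25%) had no match in these windows. GENCODE places the outermost start of Saa3, Lyz2 and Lpo 24, 49 and 2175 bases upstream of the RefSeq start, so the Lpo window lies inside the GENCODE gene.

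On the mm10 build, Saa3 (ENSMUSG00000040026) lies on chromosome 7 from 46711998 to 46715700, Hp (ENSMUSG00000031722) on chromosome 8 from 109575128 to 109579172, Lyz2 (ENSMUSG00000069516) on chromosome 10 from 117277331 to 117282321 and Lpo (ENSMUSG00000009356) on chromosome 11 from 87806428 to 87828289, and the place of Cd14 is given with its values. All 5 are protein-coding genes on the minus strand in GENCODE M21. Lyz2 has its near copy Lyz1 5475 bases away, and 15.4% of the 50-base windows of the Lyz2 transcript occur in Lyz1 transcripts, so reads from those windows could be split between the copies. Lyz1 was not analysed here. Saa3 shares 3.57% of its windows with transcripts of other genes, and Hp, Lpo and Cd14 share none.

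Lef1 itself had 227 ± 79.8 TPM in Lef1KI, against 0.448 ± 0.0763 TPM in WT (SD, n = 5 and 4). TPM values correct reads for transcript length and scale each library to the same total. The basal keratin gene Krt5 was abundant in both groups, at 7328 to 9482 TPM in Lef1KI and 5308 to 10540 TPM in WT. Of the 10 measured basal and myoepithelial markers 0 passed limma's adjusted p under 0.05 (0 higher and 1 lower at an unadjusted p under 0.05). Over all genes 7.97% passed in either direction, and unadjusted 18.7% were higher and 5.06% lower. Beside such shares, 0 of 10 does not show that these markers were unchanged. Of the contractile genes, Acta2, the gene behind the Cre driver, averaged 62.3 ± 31.2 TPM in Lef1KI libraries, against 129 ± 41.0 TPM in WT libraries (limma adjusted p 0.0834). Tagln averaged 6.84 TPM in Lef1KI and 4.95 TPM in WT, Myh11 averaged 0.742 TPM in Lef1KI and 0.838 TPM in WT, and Cnn1 was not analysed here. The number of genes at 1 TPM or more was 11863 to 12135 per Lef1KI library and 11465 to 11854 per WT library, and read depth is unknown because TPM keeps no counts. Genes of fibroblasts stood higher in the same Lef1KI libraries: all 10 listed markers were measured, and 8 rose by limma at an adjusted p under 0.05. At that threshold 6.73% of all genes rose and 1.24% fell. The summed level of the 10 markers was 320 to 1039 TPM in Lef1KI and 73.9 to 138 TPM in WT. Of 8 endothelial markers 6 were measured and 5 rose, beside the same 6.73% of all genes. Their sums were 12.8 to 45.1 TPM in Lef1KI and 1.45 to 5.28 TPM in WT. The deposited table keeps genes whose mean log2 value is over 3 times its SD in at least 1 group. Cdh5, Emcn, Pecam1, Kdr and Plvap, the 5 that rose, and the fibroblast marker Thy1 met that rule only in Lef1KI. Their calls are therefore shaped by the rule and are no independent evidence. The fibroblast marker Fap, which did not pass in limma, also met the rule only in Lef1KI, and it counts in the summed level. Fewer cells of a type and less RNA per cell cannot be told apart in these bulk libraries.

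Saa3 was the most abundant of the 5 genes. Lef1KI libraries A to E had 2409, 1655, 3336, 3347 and 803 TPM, against 192, 267, 313 and 524 TPM in WT libraries A, B, E and D. Every Lef1KI library was above every WT library, although Lef1KI E was only 1.53 times WT D. The means were 2310 ± 1100 TPM in Lef1KI, against 324 ± 143 TPM in WT (SD, n = 5 and 4), a log2 difference of 2.75 with an SE of 0.42 on the log2(TPM + 1) scale used for all differences here. Saa3 alone made up 0.0805% to 0.336% of all transcripts in Lef1KI libraries and 0.0192% to 0.0526% in WT libraries. It ranked between 34 and 185 among the genes of a Lef1KI library and between 238 and 635 in a WT library, so it was an abundant transcript of the WT cells too.

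Hp encodes haptoglobin, the plasma protein that binds free hemoglobin. Its level was 197.9, 92.1, 171, 157 and 60.9 TPM in Lef1KI A to E, against 12.6, 26.3, 22.02 and 23.5 TPM in WT A, B, E and D. The lowest Lef1KI library, again E, was 2.32 times the highest WT library. Means were 136 ± 57.2 TPM in Lef1KI, against 21.1 ± 5.94 TPM in WT (log2 difference 2.55, SE 0.34). The ratio of Saa3 to Hp ran from 12.2 to 21.4 in Lef1KI libraries and from 10.2 to 22.3 in WT libraries, ranges that overlap.

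Lyz2, which encodes the macrophage-type lysozyme, was a low transcript in both groups. It had 4.46, 8.42, 10.1, 12.2 and 4.68 TPM in Lef1KI A to E, against 0.31, 1.35, 0.86 and 3 TPM in WT A, B, E and D. The groups did not overlap, with Lef1KI A at 1.49 times WT D. Lyz2 met the deposited table's rule, a mean over 3 times its SD in at least 1 group, only in Lef1KI. Its difference is therefore also shaped by that rule and is no independent evidence. Means were 7.96 ± 3.37 TPM in Lef1KI, against 1.38 ± 1.16 TPM in WT, and the WT coefficient of variation of 84.1% was the largest of the 5 genes. The log2 difference of 1.95 (SE 0.35) became 2.69 with a pseudocount of 0.1 in place of 1, since a pseudocount of 1 compresses low values.

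Lpo was the lowest of the 5 and reached 1 TPM in Lef1KI C and E alone. Its level was 0.88, 0.97, 1.24, 0.67 and 2.13 TPM in Lef1KI A to E, against 0.34, 0.34, 0.24 and 0.37 TPM in WT A, B, E and D. No WT library reached the lowest Lef1KI library, and Lef1KI E, the lowest Lef1KI library for Saa3 and Hp, was the highest for Lpo. Means were 1.18 ± 0.57 TPM in Lef1KI, against 0.323 ± 0.0568 TPM in WT. The log2 difference was 0.69 (SE 0.16) with a pseudocount of 1 and 1.51 with a pseudocount of 0.1.

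Cd14 (ENSMUSG00000051439, chromosome 18 from 36725067 to 36726798, minus strand) had the smallest ratio of means of the 5 genes and the lowest coefficient of variation in each group. Lef1KI A to E had 8.76, 6.85, 11.2, 11.4 and 7.84 TPM, against 3.86, 4.65, 4.47 and 4.89 TPM in WT A, B, E and D. The lowest Lef1KI library, B, was 1.40 times the highest WT library, D. Means were 9.20 ± 2.02 TPM in Lef1KI, against 4.47 ± 0.440 TPM in WT, a ratio of 2.06 and a log2 difference of 0.88 (SE 0.17).

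**Figure D1:**
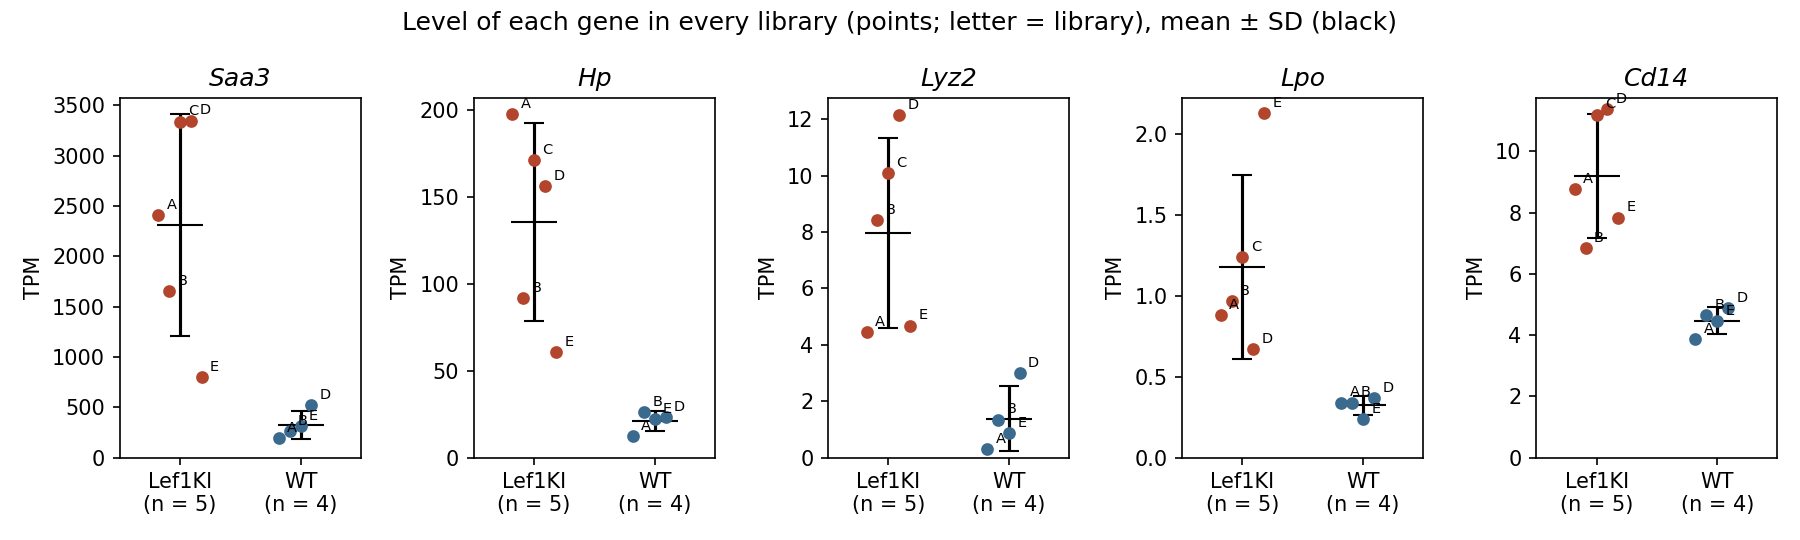
TPM of Saa3, Hp, Lyz2, Lpo and Cd14 in each Lef1KI (left, n = 5) and WT (right, n = 4) library on linear axes from 0, with library letters and the group mean ± SD in black. All 5 genes have their lowest Lef1KI library above their highest WT library, and within Lef1KI library E is lowest for Saa3 and Hp and highest for Lpo.

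Ordered by level per length, the genes ran Saa3, Hp, Cd14, Lyz2 and Lpo in both groups. Cd14 and Lyz2 were not separated in Lef1KI, where Lyz2 was above Cd14 in 2 of 5 libraries, while it was above in 0 of 4 WT libraries. Lyz2 and Lpo overlapped in WT, where Lyz2 in library A (0.31 TPM) lay below Lpo in 3 libraries (0.34 to 0.37 TPM). Saa3 lay above 99.3% of the genes by mean level in Lef1KI and above 97.2% in WT, whereas Lpo lay above 10.6% in Lef1KI and 4.76% in WT. Ratios of mean TPM were 7.13 for Saa3, 6.44 for Hp, 5.77 for Lyz2, 3.65 for Lpo and 2.06 for Cd14. The non-overlap of all 5 genes stands beside 10.0% of all 13336 genes whose Lef1KI libraries all exceeded all WT libraries (1.89% for the opposite direction), and it follows from how the genes were chosen.

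Variation between libraries of the same group was not used to choose the genes, and it was tested by subtracting each gene's group mean and correlating the remaining log2 values over the 9 libraries, with a two-sided exact permutation within groups (2880 orders) and Benjamini-Hochberg adjustment over the 10 pairs. No pair passed after adjustment. The closest pair was Saa3 and Hp, with Pearson r = 0.85 (exact permutation p = 0.0122, adjusted 0.116) and Spearman rho = 0.67 (exact permutation p = 0.0781). Without Lef1KI E and WT D, the libraries farthest from the Saa3 median, r was 0.75 (exact permutation p = 0.0972). Saa3 and Cd14 had r = 0.77 (exact permutation p = 0.0347, adjusted 0.116) and rho = 0.83 (0.0135), and r was 0.95 without the same libraries (0.0208). Saa3 and Lyz2 had r = 0.74 (exact permutation p = 0.0288, adjusted 0.116) and rho = 0.73 (0.0479), with r = 0.52 without those libraries (0.299). Hp with Cd14 and Lyz2 with Cd14 gave r = 0.70 and 0.60, and Hp with Lyz2 gave 0.44, which turned to -0.21 without Lef1KI E and WT A.

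Lpo had negative coefficients with each of the others, and they rested on few libraries. With Saa3 and Hp it had r = -0.66 and -0.64 (exact permutation p = 0.119 and 0.127, adjusted 0.182 for both), and with Lyz2 and Cd14 -0.32 for both. Leaving out Lef1KI E alone, the Lef1KI library with the highest Lpo and the lowest Saa3 and Hp, brought Saa3 and Lpo to r = 0.014. Ranked among the 13335 other genes by r with Saa3, Hp stood at place 228, Cd14 at 559, Lyz2 at 697 and Lpo at 12500, so many genes followed Saa3 more closely than the other members did.

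**Figure D2:**
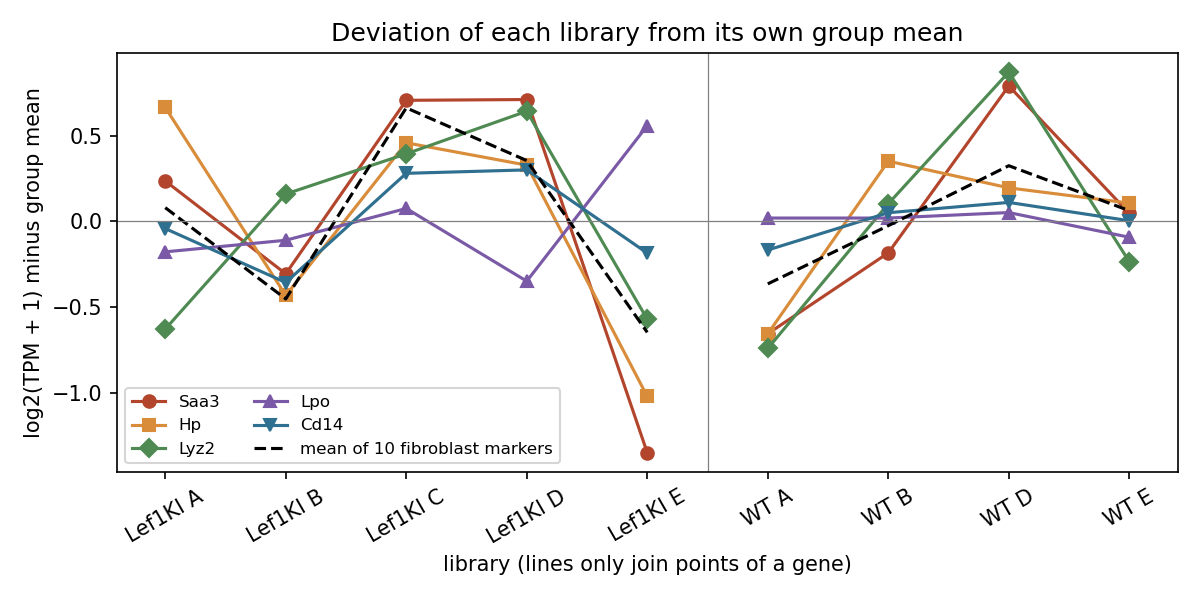
Deviation of log2(TPM + 1) from the group mean, by library, for the 5 genes and for the mean of the 10 fibroblast markers (dashed). Saa3, Hp and Cd14 lie above their group mean in Lef1KI C and D and below it in Lef1KI B, Lef1KI E and WT A, and Lpo is highest in Lef1KI E.

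The level of Lef1 between libraries of a group bore no detectable relation to that of the 5 genes. Group-centred r with Lef1 was 0.061 for Saa3, 0.048 for Hp, 0.00076 for Lyz2, 0.00026 for Lpo and -0.29 for Cd14, with Spearman rho between -0.35 and 0.10 (exact permutation p from 0.428 to 0.999 over both measures, adjusted from 0.892 to 0.999 over 5 genes). Without the 2 libraries farthest from each gene's median, r ranged from -0.46 to 0.74 (exact permutation p from 0.264 to 0.817). Lef1KI D had the lowest Lef1 of its group, 139 TPM, and the highest Saa3, Lyz2 and Cd14.

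The genes most like each member were taken by the highest group-centred Pearson r over the 9 libraries among 10368 genes with a mean log2(TPM + 1) of at least 2. For Saa3 they were the matrix proteoglycan gene Dcn (r = 0.98), the complement gene C4b (0.98) and the matrix protein gene Spon1 (0.97). Dcn is one of the 10 fibroblast markers and had 305 ± 133 TPM in Lef1KI, against 44.0 ± 14.9 TPM in WT. For Hp they were the complement protease gene C1ra (r = 0.98), the ion pump regulator gene Fxyd1 (0.98) and the extracellular matrix gene Svep1 (0.97). For Cd14 they were Arhgef25 (r = 0.95), Pbxip1 (0.95) and the arylsulfatase gene Arsa (0.94).

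Lyz2 and Lpo had other leading genes. Lyz2 was most like Prkag2 (r = 0.97), a subunit gene of the energy sensor AMPK, Smim14 (0.96) and the beta-catenin cofactor gene Bcl9 (0.95). Lpo was most like Yaf2 (r = 0.98), the translation initiation gene Eif2b1 (0.98) and the replication gene Ticrr (0.98). At r of at least 0.9 there were 64 genes for Saa3, 70 for Hp, 25 for Lyz2, 152 for Lpo and 26 for Cd14.

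Because Dcn led the Saa3 list, the mean log2 level of the 10 fibroblast markers was then set against each gene in the same way, a comparison chosen after these values were seen. Dcn is itself in that mean, so the p-values partly restate what prompted the comparison and are no independent evidence. Saa3 had r = 0.93 and rho = 0.92 with it (exact permutation p = 0.00208 and 0.00104, adjusted over 5 genes 0.0104 and 0.00521), and r was 0.95 without Lef1KI E and WT D (0.0139). Cd14 had r = 0.91 and rho = 0.90 (exact permutation p = 0.0122 and 0.0177, adjusted 0.0304 and 0.0443), and r was 0.95 without Lef1KI B and D (0.0278). Hp had r = 0.84 and rho = 0.75 (exact permutation p = 0.0205 and 0.0656, adjusted 0.0341 and 0.109), and r was 0.67 without Lef1KI E and WT A (0.306). Lyz2 had r = 0.65 and rho = 0.58 (exact permutation p = 0.0792 and 0.106, adjusted 0.0990 and 0.132), and r was 0.56 without WT A and WT D (0.308). Lpo had r = -0.47 and rho = -0.18 (exact permutation p = 0.369 and 0.682, both unchanged by adjustment), and r was 0.55 without Lef1KI D and E (0.403). Leaving out each library in turn gave 0.91 to 0.96 for Saa3, passing after adjustment every time, 0.87 to 0.94 for Cd14 and 0.74 to 0.92 for Hp, while Lyz2 passed without Lef1KI A (0.75) or Lef1KI B (0.77). Cd14 lost the call without Lef1KI A (0.92) or WT A (0.90), and Hp lost it in 6 of the 9 fits, among them those without Lef1KI E (0.74) and WT A (0.82). With Dcn left out of the list, an alternative also added after seeing the data, r with the other 9 markers was 0.90 for Saa3, 0.82 for Hp, 0.62 for Lyz2, -0.42 for Lpo and 0.93 for Cd14 (exact permutation p = 0.00208, 0.0253, 0.0941, 0.444 and 0.00938, adjusted 0.0104, 0.0422, 0.118, 0.444 and 0.0234). The part of fibroblast transcripts in the levels of the 5 genes was not tested.

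**Figure D3:**
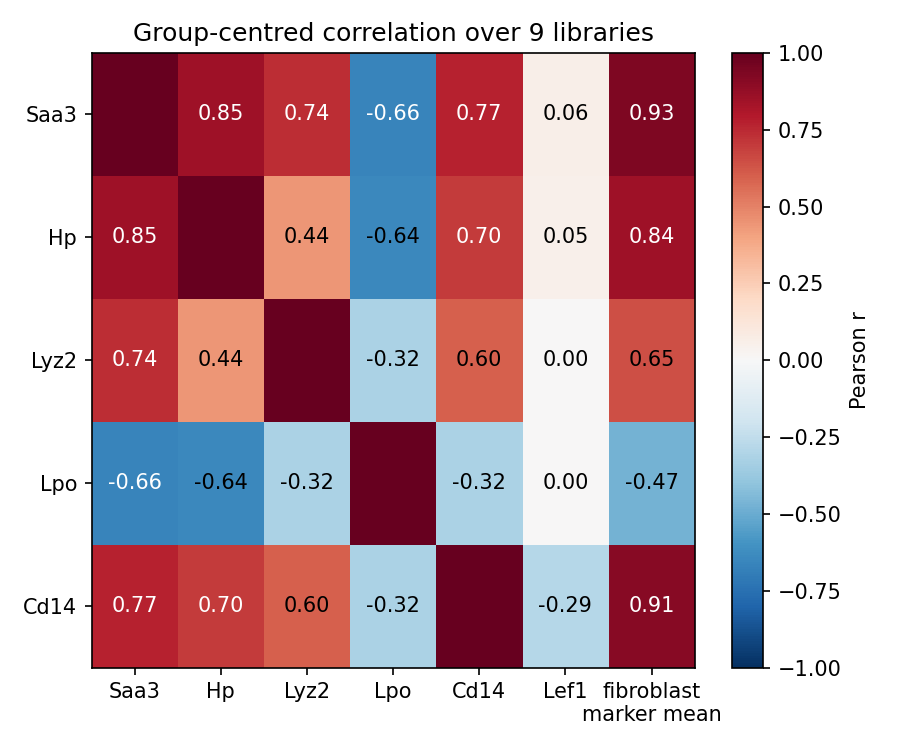
Pearson r between group-centred log2(TPM + 1) values over 9 libraries, for the 5 genes against each other, Lef1 and the mean of 10 fibroblast markers. Saa3, Hp, Lyz2 and Cd14 have positive r with each other, Lpo has negative r with them, and the columns for Lef1 are near 0 except for Cd14 at -0.29.

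Leukocytes are the other cells in which Lyz2 and Cd14 are known to be high. Of 19 leukocyte markers 6 were measured, and 13 were not analysed here, among them Ptprc and Csf1r. Their summed level was 105 to 276 TPM in Lef1KI and 199.8 to 292 TPM in WT, most of it from the lysosomal gene Cd68 and the calprotectin genes S100a8 and S100a9. By limma 1 rose and 0 fell (2 and 1 at an unadjusted p under 0.05), beside 6.73% and 1.24% of all genes (18.7% and 5.06% unadjusted). Cd68 was lower in Lef1KI, at 93.7 ± 82.1 TPM, against 180 ± 60.9 TPM in WT (log2 difference -1.18, limma adjusted p 0.136). S100a8 and S100a9 averaged higher in Lef1KI and did not pass. The macrophage gene Adgre1 had 0.10 to 0.20 TPM in Lef1KI, and in WT it was listed at 0 in 3 libraries and had 0.01 TPM in the other. Coro1a rose, with 0.544 ± 0.160 TPM in Lef1KI, against 0.13 ± 0.0956 TPM in WT (limma adjusted p 0.0198), and WT E was listed at 0. Coro1a and Adgre1 met the deposited table's rule, a mean over 3 times its SD in at least 1 group, only in Lef1KI. Their differences are therefore shaped by that rule and are no independent evidence. Itgam was between 0.07 and 0.35 TPM in Lef1KI and between 0.18 and 0.36 TPM in WT. The part of leukocyte transcripts in Lyz2 and Cd14 was not tested.

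Several other listed acute phase genes were higher in Lef1KI alongside Saa3 and Hp. That list, like the other lists here, was chosen with earlier results of these data known, so its counts are no independent evidence. Of 23 listed genes 11 were measured, and 7 rose and 0 fell by limma over all genes (8 and 0 at an unadjusted p under 0.05), against 6.73% of all genes rising and 1.24% falling (18.7% and 5.06% unadjusted). Over all genes these were 898 rises and 165 falls, which became 605 and 332 with median centring and 581 and 330 with trimmed-mean scaling. The acute phase list's median log2 difference was 1.76, beside 0.14 over all genes. C3, the central complement component, had 554, 306, 519, 468 and 178 TPM in Lef1KI A to E, against 54.2, 73.3, 107 and 107 TPM in WT A, B, E and D (log2 difference 2.17, SE 0.33, limma adjusted p 0.00316). Its lowest Lef1KI library was E, as for Saa3 and Hp, and the groups did not overlap. Serpina3n, a protease inhibitor gene from a cluster of near copies among which reads may be split, had 1473 ± 581 TPM in Lef1KI, against 338 ± 73.9 TPM in WT (limma adjusted p 0.00316). The pentraxin gene Ptx3 had 37.4 ± 21 TPM in Lef1KI, against 7.36 ± 2.48 TPM in WT, and the metalloreductase gene Steap4 had 153 ± 42.7 TPM in Lef1KI, against 42.9 ± 1.49 TPM in WT (limma adjusted p 0.00316 and 0.000765).

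The other 3 that rose, named after their values were seen, were the ferroxidase gene Cp (log2 difference 1.86), complement factor B, Cfb (1.87), and the siderophore-binding lipocalin gene Lcn2. Lcn2 had 1417 ± 410 TPM in Lef1KI, against 742 ± 186 TPM in WT (log2 difference 0.91, limma adjusted p 0.0463), a call lost with either scaling and in 7 of 9 fits with 1 library omitted. Saa2, a close relative of Saa3, had 1.59 ± 1.26 TPM in Lef1KI, against 0.410 ± 0.101 TPM in WT and did not pass (limma adjusted p 0.161). The alpha-1-acid glycoprotein gene Orm1, named after its value was seen, had 36.6 ± 24.3 TPM in Lef1KI, against 44.9 ± 18.8 TPM in WT (limma adjusted p 0.561), and Saa1 and Hpx were not analysed here. The fibroblast markers were higher in the same libraries (320 to 1039 TPM in Lef1KI, 73.9 to 138 TPM in WT), and their part in these genes and in those of the other lists was not tested.

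**Figure D4:**
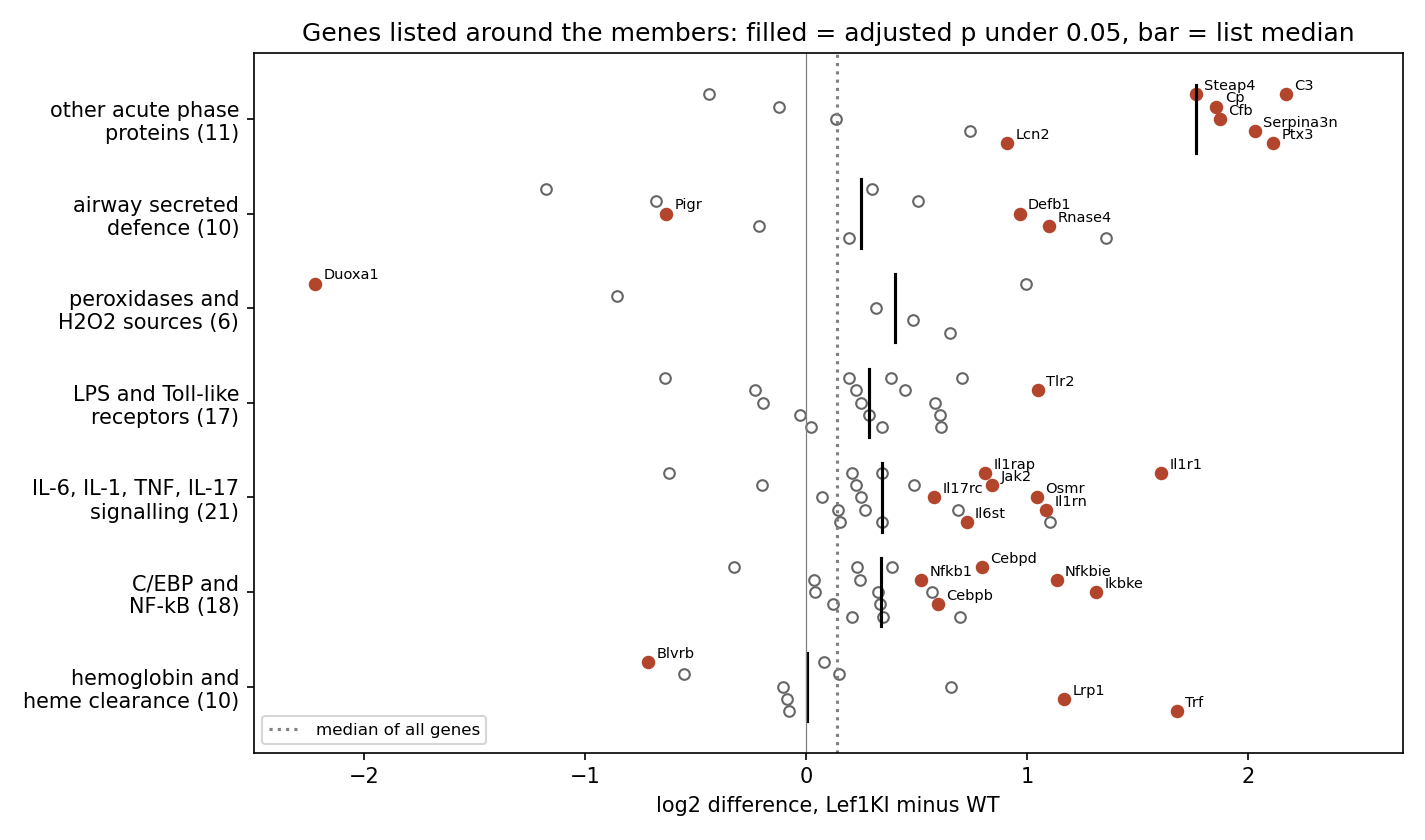
Log2 difference, Lef1KI minus WT, for the measured genes of 7 lists around the members (number measured in brackets), with filled and named points for a limma adjusted p under 0.05, a bar at each list's median and a dotted line at the median of all genes (0.14). The acute phase list lies farthest to the right, at a median of 1.76, and Duoxa1 farthest to the left, at -2.22.

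Among genes for secreted defence proteins of airway glands and surface epithelium, 10 of 17 were measured, 2 rose and 1 fell by limma (3 and 3 at an unadjusted p under 0.05), beside all-gene shares of 6.73% and 1.24% (18.7% and 5.06% unadjusted), and the median log2 difference was 0.25. The beta-defensin gene Defb1 had 75.8 ± 15.8 TPM in Lef1KI, against 37.7 ± 2.96 TPM in WT (limma adjusted p 0.00333), and the ribonuclease gene Rnase4 had 137 ± 45.8 TPM in Lef1KI, against 60.4 ± 6.88 TPM in WT (limma adjusted p 0.0169). Pigr, the receptor that carries polymeric antibodies into secretions, fell to 0.304 ± 0.124 TPM in Lef1KI, against 1.02 ± 0.131 TPM in WT (limma adjusted p 0.0032). It was a low transcript in both groups. It met the deposited table's rule, a mean over 3 times its SD in at least 1 group, only in WT. Its fall, the 1 fall of the list, is therefore shaped by that rule and is no independent evidence. Chil1, named after its value was seen and 1 of the 3 unadjusted rises, met the rule only in Lef1KI, so the same limit holds for it. The lactoferrin gene Ltf, a serous cell product like Lpo and named after its value was seen, had 13.7 ± 9.66 TPM in Lef1KI, against 31.8 ± 21 TPM in WT and did not pass (limma adjusted p 0.191). The call of Rnase4 ended with trimmed-mean scaling (log2 difference 0.93) and without WT E (1.03), which left 1 rise in the list, and there were 2 falls without WT A.

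Lactoperoxidase needs hydrogen peroxide, which the dual oxidases supply in airway epithelium. Of 16 listed peroxidase and peroxide-source genes 6 were measured, 0 rose and 1 fell by limma (3 and 2 at an unadjusted p under 0.05), and limma without its intensity trend called 1 rise. Over all genes 6.73% rose and 1.24% fell, and 18.7% and 5.06% were higher and lower at an unadjusted p under 0.05. Without Lef1KI E there were 1 rise and 2 falls, and without Lef1KI A or Lef1KI B 1 rise. Duoxa1, the maturation factor of DUOX1, had 24.8, 16.8, 14.1, 19.97 and 19.9 TPM in Lef1KI A to E, against 118, 94.0, 54.9 and 114 TPM in WT A, B, E and D. All Lef1KI libraries were below all WT libraries (log2 difference -2.22, SE 0.23, limma adjusted p 0.000534). Duox1 had 8.14 ± 3.79 TPM in Lef1KI, against 14.7 ± 2.31 TPM in WT, which did not pass (log2 difference -0.85, limma adjusted p 0.0781), but passed with median centring (-1.01), with trimmed-mean scaling (-1.03) and without Lef1KI E (-1.06). The neighbouring peroxidase gene Mpo, 2014 bases from Lpo, and Duox2 were not analysed here.

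Of 21 genes of lipopolysaccharide recognition and Toll-like receptor signalling 17 were measured, 1 rose and 0 fell by limma (6 and 1 at an unadjusted p under 0.05), with a median log2 difference of 0.28. The 1 rise is 5.88% of the list, close to the 6.73% of all genes that rose, and unadjusted 18.7% of all genes were higher and 5.06% lower. Tlr2, the receptor for bacterial lipopeptides, had 21.6 ± 7.71 TPM in Lef1KI, against 9.40 ± 1.55 TPM in WT (limma adjusted p 0.039), a call lost under both scalings and with any library left out except Lef1KI A or E; the list held 2 rises without Lef1KI A and 1 fall without WT A. Tlr4 had 9.07 ± 2.94 TPM in Lef1KI, against 5.49 ± 1.22 TPM in WT (limma adjusted p 0.14). Ly96, which encodes MD-2, had 13.3 ± 1.31 TPM in Lef1KI, against 13.4 ± 3.61 TPM in WT (limma adjusted p 0.951), a difference of 0.024 that became -0.13 with median centring. Lbp, which carries lipopolysaccharide to CD14, had 52.7 ± 22.7 TPM in Lef1KI, against 43.2 ± 28.2 TPM in WT (limma adjusted p 0.611).

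Of 25 genes of the IL-6, IL-1, TNF and IL-17 pathways 21 were measured, 7 rose and 0 fell by limma (11 and 0 at an unadjusted p under 0.05), with a median log2 difference of 0.34. The all-gene shares were 6.73% rising and 1.24% falling, and 18.7% and 5.06% unadjusted. Il1r1, the signalling receptor for IL-1, had 7.89, 6.68, 15.4, 12.8 and 6.72 TPM in Lef1KI A to E, against 2.05, 2.29, 1.93 and 3.52 TPM in WT A, B, E and D. The groups did not overlap (log2 difference 1.61, SE 0.26, limma adjusted p 0.00398). Its co-receptor gene Il1rap (log2 difference 0.81), the oncostatin M receptor gene Osmr (1.05) and the kinase gene Jak2 (0.84) also rose (limma adjusted p 0.0121, 0.016 and 0.0181), although the call of Jak2 ended when WT B (0.85) or WT E (0.86) was omitted. The shared IL-6 receptor subunit gene Il6st (0.73), Il17rc (0.58) and the IL-1 antagonist gene Il1rn (1.09), named after their values were seen, lost their calls under both scalings and in 4, 6 and 8 of 9 fits with 1 library omitted. The list had 4 rises under either scaling, and 3, 4 and 4 without WT B, WT D and WT E.

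Il6 itself had 2.56, 4.12, 16.2, 4.60 and 5.37 TPM in Lef1KI A to E, against 2.27, 1.78, 1.99 and 2 TPM in WT A, B, E and D. Lef1KI C stood well above the rest, and the difference of 1.10 did not pass (limma adjusted p 0.0986), although it passed without Lef1KI A (1.32) and without Lef1KI C (0.75). Stat3, the transcription factor downstream of IL-6, had 69.9 ± 12.2 TPM in Lef1KI, against 57.9 ± 2.37 TPM in WT (limma adjusted p 0.301), and passed without Lef1KI E (0.36). Il1a, Il1b and Osm were not analysed here.

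Of 19 C/EBP and NF-kB genes 18 were measured, 5 rose and 0 fell by limma (9 and 0 at an unadjusted p under 0.05), with a median log2 difference of 0.34, beside 6.73% of all genes rising and 1.24% falling (18.7% and 5.06% unadjusted). Cebpd, a C/EBP factor induced in the acute phase, had 85.2, 90.2, 117, 85.5 and 71.8 TPM in Lef1KI A to E, against 45.4, 49.5, 53.0 and 55.9 TPM in WT A, B, E and D (log2 difference 0.80, SE 0.14, limma adjusted p 0.00591). The groups did not overlap. Cebpb had 35.6 ± 5.64 TPM in Lef1KI, against 23.1 ± 2.14 TPM in WT (log2 difference 0.60, limma adjusted p 0.0266), a call lost under both scalings and when Lef1KI C, WT B, WT D or WT E was omitted. The kinase gene Ikbke (log2 difference 1.31) and the NF-kB inhibitor gene Nfkbie (1.13) rose (limma adjusted p 0.00793 and 0.00808). Nfkb1, named after its value was seen (0.52, limma adjusted p 0.0494), lost its call under both scalings and in 8 of 9 such fits. The list had 3 rises under either scaling and without Lef1KI C, WT B, WT D or WT E.

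Around haptoglobin, 10 of 11 genes of hemoglobin and heme clearance were measured, 2 rose and 1 fell by limma (2 and 2 at an unadjusted p under 0.05), with a median log2 difference of 0.0032. Of all genes 6.73% rose and 1.24% fell (18.7% and 5.06% unadjusted). Lrp1, the receptor that clears heme bound to hemopexin, had 70.6 ± 28.7 TPM in Lef1KI, against 29.1 ± 3.58 TPM in WT (limma adjusted p 0.0196), a call lost without WT A (1.08) or WT E (1.18), each of which left 1 rise, and the list had 2 falls without Lef1KI A. The transferrin gene Trf had 16.2 ± 6.57 TPM in Lef1KI, against 4.38 ± 2.32 TPM in WT (limma adjusted p 0.00936). Blvrb, a biliverdin reductase gene, fell to 28.4 ± 2.52 TPM in Lef1KI, against 47.3 ± 3.75 TPM in WT (limma adjusted p 0.0032). Hmox1, the inducible heme oxygenase gene, named after its value was seen, had 126 ± 24.5 TPM in Lef1KI, against 112 ± 12 TPM in WT (limma adjusted p 0.556), and the haptoglobin receptor gene Cd163 was not analysed here.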

How the data were processed

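Stranded mRNA libraries (TruSeq, per the labels' protocols) of 5 Lef1KI and 4 WT pools were analysed from the table of log2(TPM + 1) values that the authors deposited. Per the submitters' processing notes, RSEM and the mm10 build were used; no source used here gives their versions, the aligner or the annotation. In every deposited gene the mean was over 3 times its SD in at least 1 group (lowest ratio 3.002). Among the 5 genes described, Lyz2 met this in Lef1KI only. Columns carry letters and the labels numbers, so columns were placed in groups by name. Whether pools are independent cultures rests on the labels, and p-values measure the spread between pools.

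Groups were compared with limma 3.58.1 (R 4.3.3, trend on, group as the only term, two-sided, Benjamini-Hochberg over 13336 genes, adjusted p under 0.05), tested on simulated data. Differences are Lef1KI minus WT. GENCODE M21 held 99.6% of the gene IDs. The 5 genes and all lists were chosen with earlier results of these data known. Named genes are the members, Lef1, up to 4 called genes per list and direction, 9 measured partners of 14, and 3 genes most like each member; others are marked. Alternatives were median centring, trimmed-mean scaling, a pseudocount of 0.1, a filter at a mean log2 of 1, no trend, a letter block and leaving out each library. Promoter sequences came from RefSeq (GRCm38.p6), which matched Saa3, Lyz2 and Lpo.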

Additional observations from a re-analysis of the deposited data

Results flagged for a closer look

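On the log2(TPM + 1) scale, 80 groups of values were checked (34 listed genes, the 5 genes and Lef1, in each group). A single library stood far from the rest 3 times, where chance flags about 1 in 20. Il6 in Lef1KI C, which stood well above the rest in TPM, was not flagged on that scale. Il1rap had 22.5 TPM in Lef1KI C, against 13.9 to 15.9 TPM in the other Lef1KI libraries. Jak2 had 26.1 TPM in Lef1KI C, against 15.2 to 17.8 TPM in the others. Cfb had 3.72 TPM in WT A, against 7.50 to 8.12 TPM in the other WT libraries. None of Saa3, Hp, Lyz2, Lpo, Cd14 and Lef1 had such a library.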

How the results depend on the processing

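The log2 differences of the 5 genes kept their sign in all 75 alternatives, and 73 stayed within the spread between libraries. Lyz2 became 2.69 and Lpo 1.51 with a pseudocount of 0.1. These genes were picked as higher in Lef1KI, and every Lef1KI library exceeded every WT library for each of them. Leaving out a library therefore could not change a sign, and the kept signs are no independent evidence. Leaving out each library gave 2.53 to 3.09 for Saa3, 2.34 to 2.81 for Hp, 1.70 to 2.24 for Lyz2, 0.55 to 0.77 for Lpo and 0.81 to 0.97 for Cd14. Median centring moved the median of all genes to -0.018 and trimmed-mean scaling to -0.031, against 0.14. Over all genes, 898 rises and 165 falls became 332 falls with median centring, and 581 rises and 330 falls with trimmed-mean scaling. Both scalings gave 2 falls among peroxidase genes, 0 rises among Toll-like receptor genes (4 at an unadjusted p under 0.05 in limma), 4 among cytokine pathway genes and 3 among C/EBP and NF-kB genes, and trimmed-mean scaling 1 rise among secreted defence genes. The filter on low values gave 1 peroxidase rise and 2 heme falls, and limma without its trend 1 peroxidase rise. The cause of these moves was not tested.

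Whether library letters pair the samples is unknown. Same-letter deviations correlated at -0.26 (A), 0.02 (B), 0.26 (D) and -0.15 (E), and only D matched its own letter best. So few correlations cannot settle whether a letter marks a pair. With a replicate block by letter, which drops Lef1KI C, 439 genes rose and 47 fell, with 4 acute phase, 0 Toll-like receptor, 1 cytokine pathway, 3 C/EBP and NF-kB and 0 heme rises in limma (5 Toll-like receptor and 2 heme rises at an unadjusted p under 0.05).

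Leaving out a library gave 565 to 1416 rises (1416 without Lef1KI A, 576 without WT B, 565 without WT E) and 63 to 270 falls over all genes. Lists ranged over 6 to 7 rises for acute phase genes, 1 to 2 rises and 1 to 2 falls for secreted defence, 0 to 1 and 1 to 2 for peroxidases, 0 to 2 and 0 to 1 for Toll-like receptors, 3 to 8 rises for cytokine pathways, 3 to 7 for C/EBP and NF-kB, and 1 to 2 rises and 1 to 2 falls for heme genes. Ly96 turned to -0.13 and -0.15 with median centring and trimmed-mean scaling, and ranged from -0.15 to 0.15 with a library left out.

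Several correlations changed sign, both some near 0 and some farther from it. Lyz2 and Lpo had a Spearman rho of 0. Without the 2 libraries farthest from the median, r was -0.21 for Hp and Lyz2, 0.016 for Hp and Lpo, 0.59 for Lpo and Cd14, and -0.46, -0.39 and 0.74 for Lef1 with Saa3, Hp and Cd14. Lef1 with Lyz2 gave -0.091 with median centring. With a pseudocount of 0.1, Lef1 gave -0.032, -0.028 and -0.16 with Saa3, Hp and Lyz2, and by Spearman -0.28 with Saa3 and -0.18 with Lyz2. With a library left out, r ran from -0.79 to 0.014 for Saa3 and Lpo, from -0.50 to 0.069 for Lyz2 and Lpo, and from -0.70 to 0.18 for Lpo and the fibroblast markers. With Lef1 it ran from -0.39 to 0.48 for Saa3, -0.37 to 0.28 for Hp, -0.18 to 0.44 for Lyz2, -0.60 to 0.85 for Lpo and -0.80 to 0.13 for Cd14.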
